A study of Mus musculus with 14 samples.

Results

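The effect of MRL5 on wild-type ventricles was read from 5 of the 14 libraries of the series, 2 from WT mice given MRL5 and 3 from WT mice given DMSO, chosen by their labels. Each library holds polyadenylated RNA from the bulk ventricle of 1 male mouse, taken 4 hours after an intraperitoneal injection. WT mice are labelled WT/WT. The rest of the series is 5 MRL5-treated and 4 DMSO-treated male mice labelled GX/GX, which carry a changed cardiac sodium channel, and here they share in the estimate of spread and serve as a comparison. All 14 mice were injected, so DMSO is a vehicle control and not an untreated heart. The labels used here state neither strain nor age. The design text counts 4 MRL5-treated GX mice where the labels give 5, and all 5 were used.

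Voltage-gated sodium channels of heart muscle carry the current that starts each ventricular action potential. Drugs that block them slow conduction. MRL5 is known here only by its code name and is described by the submitters as an inhibitor of the changed channel, so in WT mice the comparison asks what the compound does to the transcriptome where that channel is absent. The heart answers acute stress mainly through immediate early, heat shock, heme, antioxidant and inflammatory genes. Glucocorticoid-responsive and clock genes also move within hours of handling, injection or a shift in feeding.

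Expression was given as scaled reads per base for 14161 genes, and 14150 were tested, those with a value of at least 1 in at least 2 of the 5 WT libraries. No gene entered through the MRL5 libraries alone, 14 entered through DMSO libraries alone, and 13728 were at 1 or above in all 5. Column sums ran from 18863549 to 19788366 in WT MRL5 and from 17244042 to 20209835 in WT DMSO, and mitochondrial genes held 38.9% to 44.8% of them across the 5. The cardiomyocyte markers were high in every library (Myh6 between 43256 and 63664), as were the ventricular ones (Myl2 between 77255 and 104985). WT DMSO 2 also held atrial transcripts: the atrial light chain Myl7 was at 20.7 and 11.6 in WT MRL5, against 8.04, 3967 and 6.90 in WT DMSO. In whole tissue, fewer cells of a type and less RNA per cell cannot be told apart. Set 174 of the library names holds WT DMSO 2 and WT DMSO 3, and set 148 holds the other 3 WT libraries, so the set and the treatment overlap in part. Nothing in the labels pairs the mice.

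WT MRL5 1 stood apart from the other 4 WT libraries. Over the 12887 genes with a mean of at least 10 in WT libraries, its root mean square log2 difference was 0.686 to WT MRL5 2 and 0.654, 0.723 and 0.677 to the 3 DMSO libraries. WT MRL5 2 lay at 0.452 to 0.462 from the DMSO libraries, which is closer than those were to each other (0.480 to 0.577). WT MRL5 1 also had relatively more signal on short transcripts: an index of short against long transcripts, the difference of their median log2 deviations, was 0.191 and -0.06 in WT MRL5, against -0.10, -0.09 and -0.09 in WT DMSO. Whether tissue, RNA or library preparation made this library different was not tested.

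**Figure D1:**
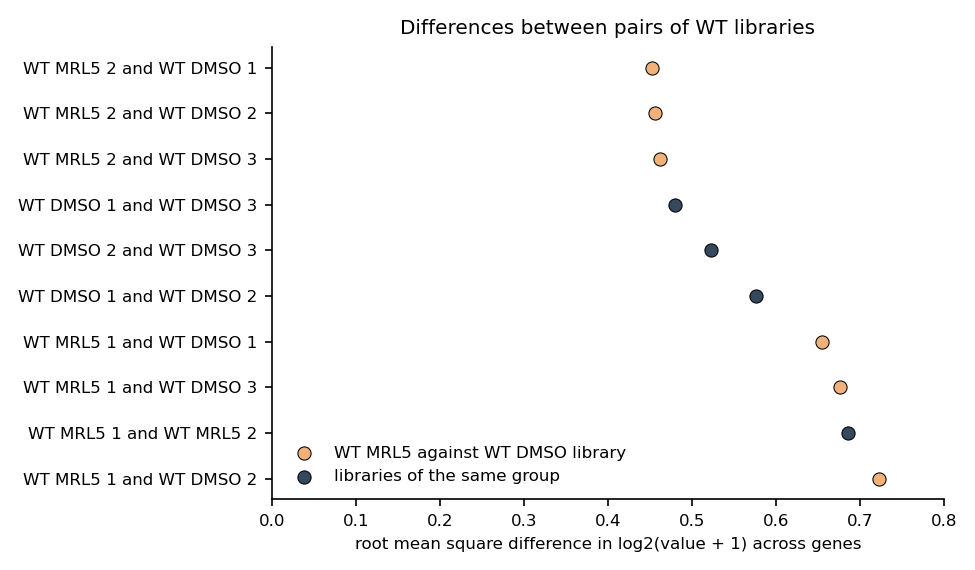
Root mean square difference in log2(value + 1) across the 12887 genes with a mean of at least 10, for each pair of WT libraries (horizontal axis, log2 units), with pairs of an MRL5 and a DMSO library in orange and pairs of the same group in dark. All 4 pairs with WT MRL5 1 lie at 0.654 or above, and the 3 pairs of WT MRL5 2 with DMSO libraries are the closest.

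Across all genes the treatment left no call. With limma's moderated test over all 14 libraries, 0 of 14150 genes (0%) had a Benjamini-Hochberg adjusted p under 0.05 between WT MRL5 and WT DMSO, and the smallest adjusted p was 0.831. Before adjustment, 798 genes (5.64%) passed 0.05, of which 411 were higher with MRL5 (2.9%) and 387 lower (2.73%). With library sums made equal the split was 192 higher and 367 lower, and the median log2 fold change of all genes was -0.03 rather than -0.0015. Both MRL5 libraries lay above all 3 DMSO libraries for 1353 genes (9.56%) and below them for 1366 (9.65%). The median standard error (SE) of a log2 fold change was 0.210, and 158 genes were higher and 312 lower by more than 1 on the log2 scale. With 2 mice against 3, an exact two-sided permutation test of a single gene cannot go below p = 0.2. Without WT MRL5 2, limma called 58 genes, 24 higher and 34 lower, and without WT MRL5 1 it called 0 (247 at an unadjusted p under 0.05). A lone MRL5 library is then taken to vary like the other groups, so the 58 calls describe WT MRL5 1.

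For WT mice, q was under 0.05 for 5 genes in the authors' deposited table. These were Fkbp5 (q = 0.00723), both Ifi205 and Amd1 (q = 0.000813 each), and, with the smallest values, Rrad at 0.000139 and Hmox1 at 4.42e-05. Rrad was higher with MRL5 and the other 4 were lower. For all 5, the 2 MRL5 libraries lay close together and apart from the 3 DMSO libraries, although WT MRL5 1 was unlike the rest over the genome. None of the 5 fold changes moved by over 1.5 times when any 1 library was left out, and 37 of the 62 genes followed in this way did. The q came from these same libraries, and the 62 genes were picked by several rules. Neither the gaps nor the small movement is therefore separate support for the 5. Each had an adjusted p = 0.831 in the limma test.

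RefSeq windows of the GRCm38.p6 build, from 250 bases before to 50 after a gene's start, were at hand for 3 of these 5 genes, all on the minus strand. They are shown because the genes were lower together in both MRL5 hearts. Capitals mark matches, on either strand, to an interferon-stimulated element core (GAAANNGAAA) or to an E-box (CACGTG), the letters bound by clock factors. Ifi205, chr1:174031706-174032005; Amd1, chr10:40302139-40302438; Fkbp5, chr17:28486100-28486399.
Ifi205: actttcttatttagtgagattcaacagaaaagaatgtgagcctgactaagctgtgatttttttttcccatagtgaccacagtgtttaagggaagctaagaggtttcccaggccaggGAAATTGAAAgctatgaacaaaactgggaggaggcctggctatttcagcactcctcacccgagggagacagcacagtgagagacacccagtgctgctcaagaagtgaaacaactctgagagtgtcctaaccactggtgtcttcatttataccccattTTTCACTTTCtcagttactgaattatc
Amd1: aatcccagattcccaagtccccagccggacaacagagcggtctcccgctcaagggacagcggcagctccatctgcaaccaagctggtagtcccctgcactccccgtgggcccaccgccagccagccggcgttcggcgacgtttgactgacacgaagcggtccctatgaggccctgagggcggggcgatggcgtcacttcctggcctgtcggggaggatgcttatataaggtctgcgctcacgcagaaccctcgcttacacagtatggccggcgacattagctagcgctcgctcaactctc
Fkbp5: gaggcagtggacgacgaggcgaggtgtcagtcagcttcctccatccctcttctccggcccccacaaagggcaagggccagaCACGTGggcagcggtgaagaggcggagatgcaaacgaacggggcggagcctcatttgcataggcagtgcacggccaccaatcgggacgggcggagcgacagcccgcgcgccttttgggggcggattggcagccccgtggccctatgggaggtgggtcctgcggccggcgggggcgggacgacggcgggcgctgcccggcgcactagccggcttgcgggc
The interferon core stood in the Ifi205 window at -134 to -125 and again, on the other strand, at 24 to 33 from the start, and 3.44% of 32851 windows of the same length hold at least 1. The E-box stood in the Fkbp5 window at -169 to -164, and 7.15% of windows hold one. A full glucocorticoid element (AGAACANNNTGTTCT) was in none of these windows and in 3 of all 32851. The Fkbp5 window lies inside the gene's span given below, so it covers a RefSeq start within that span and not its outer end. Hmox1 and Rrad had no entry.

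Rrad (chromosome 8, 104628070 to 104631327) encodes an RGK GTPase, a small G protein that holds back the L-type calcium channel. It had 3447 and 3721 scaled reads per base in WT MRL5, against 2341, 1887 and 1839 in WT DMSO, a log2 fold change of 0.83 (SE 0.266). Both MRL5 hearts were above every DMSO heart. The value was 0.61 within set 148, where 1 DMSO library remains, and 1.05 with the set as a covariate. The list of RGK proteins and L-type channel subunits had 11 members tested, with a median log2 fold change of -0.02, beside -0.0015 over all genes. 2 of the 11 had an unadjusted p under 0.05, both higher (beside 2.9% of all genes), and no other had groups that did not overlap (9.56% of all genes lay apart upward and 9.65% downward). The other was Cacnb3, a beta subunit, at 92.1 and 88.7 in WT MRL5, against 50.9, 62.9 and 67.4 in WT DMSO (log2 fold change 0.58, SE 0.232). The RGK relatives Gem (0.14, SE 0.290) and Rem1 (-0.02, SE 0.259) had overlapping groups. Cacna1c, the pore of the cardiac L-type channel, was at 5501 and 5334 in WT MRL5, against 5608, 3702 and 4867 in WT DMSO.

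Hmox1 (chromosome 8, 75093621 to 75100589) encodes heme oxygenase 1, the stress-inducible enzyme that opens the heme ring to biliverdin, iron and carbon monoxide. It had 130.7 and 158 in WT MRL5, against 293, 317 and 254 in WT DMSO, a log2 fold change of -0.99 (SE 0.354). The highest MRL5 heart was well below the lowest DMSO heart. Of 30 heme and iron genes tested, 2 were higher (beside 2.9% of all genes) and 2 lower (beside 2.73%) at an unadjusted p under 0.05, and the median was -0.0068. The 2 higher were the biliverdin reductases Blvra (0.36, SE 0.164) and Blvrb (0.47, SE 0.183), which act on the product of Hmox1. Blvrb was at 275 and 182 in WT MRL5, against 157, 170.2 and 157 in WT DMSO, and its fold change was 0.17 without WT MRL5 1 and 0.77 without WT MRL5 2. Besides Hmox1, the heme exporter Flvcr1 was lower (27.3 and 37.5 in WT MRL5, against 59.4, 54.1 and 44.0 in WT DMSO). The constitutive Hmox2 (0.03, SE 0.123) and the ferritin light chain Ftl1 (0.03, SE 0.138) differed by less than their errors. Of 27 NRF2 and antioxidant genes, Gstp1 was higher (0.30, SE 0.140) and Cat, catalase, lower (2824 and 3048 in WT MRL5, against 3324, 3317 and 3589 in WT DMSO) at that level, with a median of 0.03. The 1 higher gene is 3.70% of this list, beside 2.9% of all genes.

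Amd1 (chromosome 10, 40287458 to 40302186) encodes S-adenosylmethionine decarboxylase, which makes the donor for spermidine and spermine. It had 3028 and 3377 in WT MRL5, against 4662, 5373 and 4971 in WT DMSO, a log2 fold change of -0.64 (SE 0.171). The groups did not overlap, and adjusting for the short-transcript index gave -0.43. Its copy Amd2 was lower as well, at 14.5 and 23.4 in WT MRL5, against 30.8, 52.7 and 27.1 in WT DMSO (-0.90, SE 0.322, with -0.57 without WT MRL5 1). These are not separate observations: 90.9% of the 31-base words in Amd2 transcripts are also in Amd1, in the GENCODE M21 annotation, and the first 48 bases from the Amd2 start equal bases 3 to 50 of Amd1. Rrad by comparison shares 7.05% of its words. The sources used here do not state how reads were divided between them. In the list of 21 polyamine genes tested, 3 were lower at an unadjusted p under 0.05, beside 2.73% of all genes, and 1 was higher, beside 2.9%. The 3 were Amd1, Amd2 and Mat2a, which makes S-adenosylmethionine (-0.33, SE 0.147, with -0.22 without WT MRL5 1 and -0.23 without WT DMSO 2), and the 1 was Dhps, which modifies eIF5A with spermidine. In 7 of the 21 both MRL5 hearts were below all DMSO hearts (33.3%, beside 9.65% of all genes) and in 2 above. The median was 0.05, and Odc1, the first enzyme of the pathway, was at 359.5 and 336 in WT MRL5, against 355, 323 and 311 in WT DMSO.

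Ifi205 (chromosome 1, 174011998 to 174031810) belongs to the Ifi200 family of interferon-inducible DNA-binding proteins, encoded side by side. It had 583 and 459 in WT MRL5, against 947, 1086 and 877 in WT DMSO, a log2 fold change of -0.90 (SE 0.175), the smallest p of all genes tested. Of 10 family members tested, 2 had a positive fold change (beside 49.7% of all genes) and 2 were lower at an unadjusted p under 0.05 (beside 2.73%), with a median of -0.29. Besides Ifi205 this was Ifi208 (8.35 and 21.2 in WT MRL5, against 36.3, 23.9 and 32.1 in WT DMSO), whose fold change of -1.12 (SE 0.406) was -0.50 without WT MRL5 1 and -1.74 without WT MRL5 2. Mndal was at 63.5 and 82.9 in WT MRL5, against 118, 93.3 and 108 in WT DMSO. Members share sequence, 22.1% of the 31-base words in the case of Ifi205, so their values are uncertain to that extent. The family median was -0.08 within set 148, -0.12 with the set as a covariate and -0.09 without WT DMSO 2.

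The wider interferon list did not follow Ifi205. Of 42 interferon-response genes tested, 28 had a positive fold change, 0 had an unadjusted p under 0.05 and the median was 0.14. WT MRL5 1 decided the sign: it was the highest WT library for 25 of the 42, beside 4286 of 14150 genes overall (30.3%), and WT MRL5 2 was the highest for 0. Tap1, which loads peptides for antigen display, was at 624 and 139 in WT MRL5, against 127, 244 and 216 in WT DMSO. Psmb8, an immunoproteasome subunit, was at 1032 and 279 in WT MRL5, against 282, 462 and 397 in WT DMSO. The list median was -0.31 without WT MRL5 1, 0.52 without WT MRL5 2 and 0.47 within set 148.

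Fkbp5 (chromosome 17, 28399094 to 28517527) encodes a co-chaperone that restrains the glucocorticoid receptor and is itself among the receptor's best known targets. It had 246 and 248 in WT MRL5, against 436, 439 and 375 in WT DMSO, a log2 fold change of -0.75 (SE 0.223). The MRL5 hearts were nearly equal and below all DMSO hearts. Of 30 glucocorticoid-related genes tested, 22 had a negative fold change and the median was -0.11, with 2 lower (beside 2.73% of all genes) and 0 higher at an unadjusted p under 0.05. The second was Lcn2, an iron-binding acute phase protein also used in the inflammatory list. Sgk1, a kinase induced by corticosteroids, was at 235 and 277 in WT MRL5, against 309, 302 and 317 in WT DMSO. Per1, Tsc22d3 and Zbtb16, other targets of the receptor, had overlapping groups, with log2 fold changes of -0.11 (SE 0.291), -0.21 (SE 0.270) and -0.38 (SE 0.316). With the library set as a covariate the list median was -0.38.

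Lcn2 (chromosome 2, 32384633 to 32388252) was at 32.7 and 63.2 in WT MRL5, against 103, 169.7 and 181 in WT DMSO, a log2 fold change of -1.67 (SE 0.465). Each MRL5 heart was below each DMSO heart. The value was -1.16 within set 148 and -0.995 with the set as a covariate. Of the 43 inflammatory genes tested it was the only one with an unadjusted p under 0.05 (2.73% of all genes were lower at that level). In this list 20 had a positive fold change (median -0.02). The chemokine Ccl2 was level, at 28.4 and 26.6 in WT MRL5, against 27.2, 31.1 and 23.7 in WT DMSO.

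**Figure D2:**
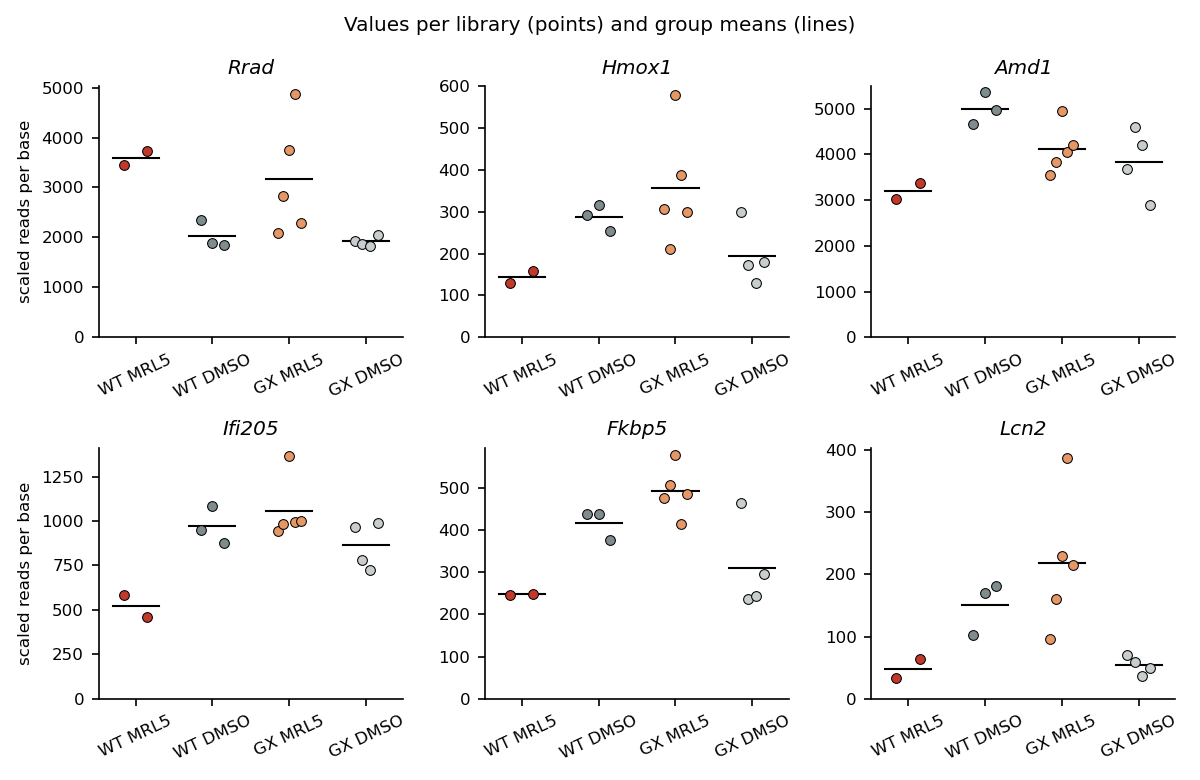
Scaled reads per base (vertical axes, from 0) of the 5 genes with an authors' q under 0.05 in WT mice and of Lcn2, with 1 point per library and a line at each group mean. In every panel the 2 WT MRL5 points lie apart from the 3 WT DMSO points, above them for Rrad and below them for the others, while the GX groups are ordered the other way for Lcn2.

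Beyond these, the genes with the smallest p and groups that did not overlap included 8 higher with MRL5. Zc3h6, a CCCH zinc-finger gene, was at 321 and 184 in WT MRL5, against 84.7, 117 and 129.1 in WT DMSO (log2 fold change 1.16, SE 0.249). The lysosomal fucosidase Fuca1 was at 111 and 118 in WT MRL5, against 67.9, 84.3 and 71.2 in WT DMSO (0.62, SE 0.145). Hr, a nuclear receptor corepressor, was at 956 and 957 in WT MRL5, against 743, 521 and 433 in WT DMSO (0.79, SE 0.210, with 0.36 within set 148). Fuca1 and Hr were alike in both MRL5 hearts, while Zc3h6 was much the highest in WT MRL5 1 (0.75 without it). Zmynd15, a transcriptional repressor known from testis, showed that pattern more strongly, at 77.8 and 25.8 in WT MRL5, against 8.86, 13.2 and 15.8 in WT DMSO, and 11.4% of its 31-base words also belong to its neighbour Cxcl16. Without WT MRL5 1 its fold change of 1.79 was 1.01. The others were Fam219b (0.59, with 0.28 without WT MRL5 1), Spef1 (0.54, with 0.33 without it), the ribosomal oxygenase Riox1 (0.53) and the protocadherin Pcdhgb4 (0.78). Riox1 shares 31.03% of its words and Pcdhgb4 46.7% with other genes.

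The lower genes of this kind were led by Ifi205. Ppp1r9a, or neurabin, which ties protein phosphatase to actin, was at 85.03 and 83.9 in WT MRL5, against 129.4, 153 and 154 in WT DMSO (-0.77, SE 0.173). Nsd2, a methyltransferase of lysine 36 on histone H3, was at 244 and 280.2 in WT MRL5, against 427, 388 and 490.5 in WT DMSO (-0.73, SE 0.169). Both had tight MRL5 values. The list of these methyltransferases has 11 genes and also holds the demethylases Kdm2a, Kdm2b and Kdm4a. Nsd2 alone of them had an unadjusted p under 0.05 (2.73% of all genes were lower at that level). In 3 of the 11 both MRL5 hearts were below all DMSO hearts (27.3%, beside 9.65% of all genes) and in 1 above. Nckap5 was at 19.5 and 59.4 in WT MRL5, against 123, 77.3 and 85.4 in WT DMSO (-1.42, SE 0.357). WT MRL5 1 was the lower heart, and without it the value was -0.64. Polk, a DNA polymerase, had a log2 fold change of -0.96 (SE 0.227), Shtn1, known from axon growth, one of -0.93 (SE 0.227, with -0.59 without WT MRL5 1) and the macrophage membrane gene Ms4a6d one of -1.01 (SE 0.257).

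The sodium channel genes held few differences. Of 13 sodium channel and channel-partner genes tested, 0 had an unadjusted p under 0.05, 6 had a positive fold change and the median was -0.0031. Among pore subunits Scn4a had a log2 fold change of 0.25 (SE 0.261), and Scn10a had 19.7 and 79.8 in WT MRL5, against 27.3, 68.4 and 34.2 in WT DMSO. The beta subunit Scn4b (-0.13, SE 0.272) had overlapping groups, while Scn2b, at low values, was at 8.52 and 14.6 in WT MRL5, against 17.8, 16.2 and 23.6 in WT DMSO.

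Other genes of excitation showed scattered differences. Of all genes, 2.9% were higher and 2.73% lower at an unadjusted p under 0.05. Of the potassium channel genes 3.57% and of the conduction system genes 4.55% were higher at that level, 1 gene in each list. Of 28 potassium channel genes, Kcnk3, a background channel, was higher (3688 and 3780.3 in WT MRL5, against 3317, 2558 and 3151 in WT DMSO; 0.32, SE 0.135, with 0.13 when the set was a covariate and 0.21 without WT DMSO 2) and none was lower at an unadjusted p under 0.05. Of 22 conduction system genes, Tbx3, the repressor that keeps conduction tissue from becoming working muscle, was lower, at 199.95 and 208 in WT MRL5, against 333, 309.7 and 255 in WT DMSO (-0.54, SE 0.162). Nkx2-5, a cardiac transcription factor, was higher (0.37, SE 0.171), with 0.10 without WT MRL5 1. Among 25 calcium cycling genes 3 were higher (beside 2.9% of all genes) and 0 lower, among them Jsrp1, a junctional protein (1.46, SE 0.481), and Jph2, which holds T-tubules to the sarcoplasmic reticulum (17528 and 14329 in WT MRL5, against 13899, 12107 and 13402 in WT DMSO). Both of these were highest in WT MRL5 1, and without it they were at 0.89 and 0.13. Within set 148 the calcium list had 0 such genes. No adult sarcomere gene of 26 reached that level, and the list median was 0.11, with -0.03 within set 148.

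Most nuclear genes of the respiratory chain had a positive fold change. Of 36 complex I subunits, 34 had a positive fold change, 7 were higher and 0 lower at an unadjusted p under 0.05 (19.4%, beside 2.9% of all genes), and in 20 the groups did not overlap upward (9.56% of all genes). The median was 0.26. Complex IV had 14 of 15 positive (median 0.23), complex V 15 of 16 (0.17) and complexes II and III 11 of 14 (0.13), with 3, 2 and 0 at that level. Ndufb11, an accessory subunit of complex I, was at 13856 and 9734 in WT MRL5, against 9429.7, 7113 and 7992 in WT DMSO (0.52, SE 0.192). Cox6a1, a subunit of complex IV, was at 3015 and 1854 in WT MRL5, against 1619, 1538 and 1265 in WT DMSO (0.69, SE 0.221). In both, WT MRL5 1 was far above the rest, and without it the values were 0.26 and 0.34. The 13 mitochondrially encoded genes of the same chain did not share the shift, with 3 positive and a median of -0.05.

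Ribosomal proteins showed a like pattern. Of 78 genes for cytosolic ribosomal proteins, 63 lay above 0 and the median was 0.12, with 5 higher at an unadjusted p under 0.05 and 35 with groups apart upward (44.9%, beside 9.56%). Of 78 mitochondrial ribosomal protein genes 66 were positive, with a median of 0.18, 8 at that level and 22 apart. None of either list was lower at that level. Rps19, of the small subunit, was at 3752 and 2680.4 in WT MRL5, against 2278, 2152 and 2105 in WT DMSO (0.54, SE 0.228). Mrpl21, of the large mitochondrial subunit, was at 912 and 673 in WT MRL5, against 627, 552 and 560.0 in WT DMSO (0.44, SE 0.136). For both genes each MRL5 heart was above each DMSO heart, with WT MRL5 1 the highest, and without it the values were 0.30 and 0.22.

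Fold changes also varied with transcript length over the genome, and these lists had short transcripts at their medians. Median transcript length was 733.5 bases for complex I, 704 for cytosolic and 1051.5 for mitochondrial ribosomal proteins. The shortest of the 5 length groups used below ended at 1076 bases. Other lists of short transcripts had medians of both signs. They were -0.05 for the mitochondrially encoded genes (784 bases) and -0.17 for the erythroid markers (701 bases), all 8 highest in WT DMSO 2. Monocyte and neutrophil markers (576.75 bases) had -0.78. Cardiomyocyte markers (813.75 bases) had 0.14, and skeletal muscle markers (849.5 bases) had 0.40. With all genes split into 5 equal groups by length, the median log2 fold change in WT mice was 0.09 in the shortest group, then 0.05, 0.0033 and -0.04, and -0.08 in the longest. Once the fit included that length index, the medians were 0.05 for complex I, 0.03 for complex IV, -0.04 for cytosolic and 0.03 for mitochondrial ribosomal proteins, with 0, 1, 1 and 1 genes higher at an unadjusted p under 0.05. Without WT MRL5 1 the complex I median was 0.17 and without WT DMSO 2 it was 0.20, with 0 such genes each time. Without WT MRL5 2 it was 0.36, with 14. Within set 148 it was 0.14, with 0. The GX libraries enter only the spread: without GX DMSO 4 the median was the same and 18 complex I genes reached that level, along with 14 cytosolic and 14 mitochondrial ribosomal protein genes. The 5 library means of complex I on the log2 scale were 12.55 and 12.36 in WT MRL5, against 12.33, 12.04 and 12.22 in WT DMSO, so WT MRL5 2 differed from WT DMSO 1 by less than the DMSO libraries did from each other. The cause of the shift in these lists was not tested.

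**Figure D3:**
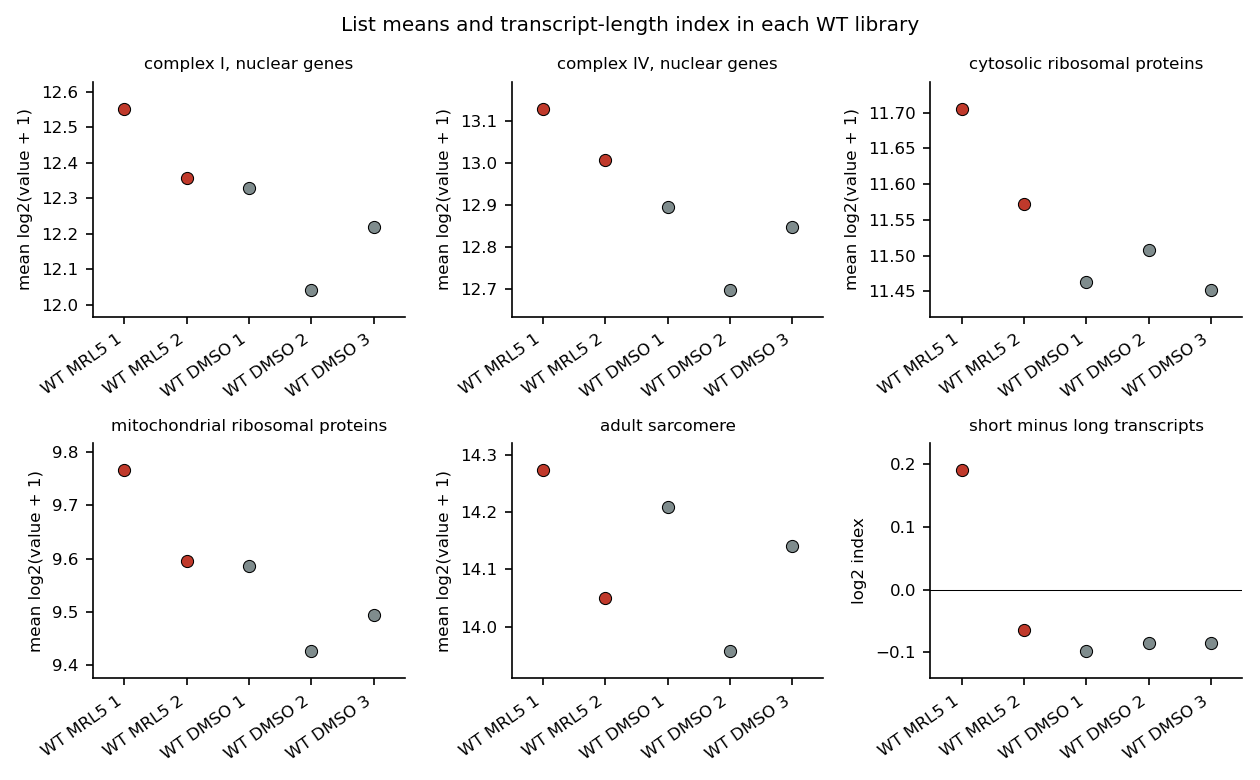
Mean log2(value + 1) of the members of 5 gene lists, and the log2 index of short against long transcripts (lower right), in each WT library, with WT MRL5 in red and WT DMSO in grey. WT MRL5 1 has the highest complex I mean (12.55) and an index of 0.191, while the other 4 libraries have an index between -0.10 and -0.06.

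The remaining pathway lists had medians between -0.11 and 0.17. Among 22 clock genes 0 reached that level, but in 7 both MRL5 hearts were below all DMSO hearts (31.8%, beside 9.65% of all genes) and in 0 above. Per2, a repressor of the clock, was at 193 and 123 in WT MRL5, against 210.0, 211 and 206 in WT DMSO. Clock itself was at 227 and 325 in WT MRL5, against 335, 332 and 349 in WT DMSO. Of the 7, Per2, Cry1 and Clock differed most, and the clock list median was -0.11. Library means of the whole clock list on the log2 scale were 7.71 and 7.49 in WT MRL5, against 7.72, 7.65 and 7.70 in WT DMSO. The mean of WT MRL5 1 thus lay within the DMSO range. Of 29 immediate early genes 2 were higher (beside 2.9% of all genes), the transcription factors Srf (0.45, SE 0.151) and Jund (0.52, SE 0.180), both highest in WT MRL5 1 (0.16 and 0.17 without it). Dusp6, a phosphatase of ERK, was lower at 135 and 136 in WT MRL5, against 163, 204 and 184 in WT DMSO (-0.43, SE 0.172). Of 30 heat shock, 24 p53, 32 unfolded protein response, 21 hypoxia and 37 matrix genes, 0 reached that level. Of 26 xenobiotic genes 3 were lower (beside 2.73% of all genes), the enzymes Aldh1a1, Ces1d and Fmo2, with log2 fold changes of -0.50 (SE 0.198), -0.28 (SE 0.130) and -0.51 (SE 0.234). Aldh1a1 and Fmo2 were at -0.17 each without WT MRL5 1, and Ces1d was at -0.17 without WT DMSO 3. Of 23 hypertrophy genes 1 was higher (4.35%, beside 2.9% of all genes) and 0 lower. It was Nfatc2, a calcineurin-regulated factor, at 236 and 174 in WT MRL5, against 130.4, 110.2 and 132 in WT DMSO (0.70, SE 0.246). Among metabolic genes, the coactivator Ppargc1b (0.49, SE 0.227, with 0.30 without WT MRL5 2) of 38 fatty acid oxidation genes and the glycolytic enzyme Gpi1 (0.31, SE 0.128) of 28 were higher. That was 2.63% and 3.57% of the 2 lists, beside 2.9% of all genes. Mvk (0.45, SE 0.194, with 0.17 without WT MRL5 1) and Mvd (0.60, SE 0.268), enzymes of the mevalonate pathway, were higher among 24 cholesterol genes (8.33%, beside 2.9% of all genes). Of the same 24, 1 was lower at that level.

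**Figure D4:**
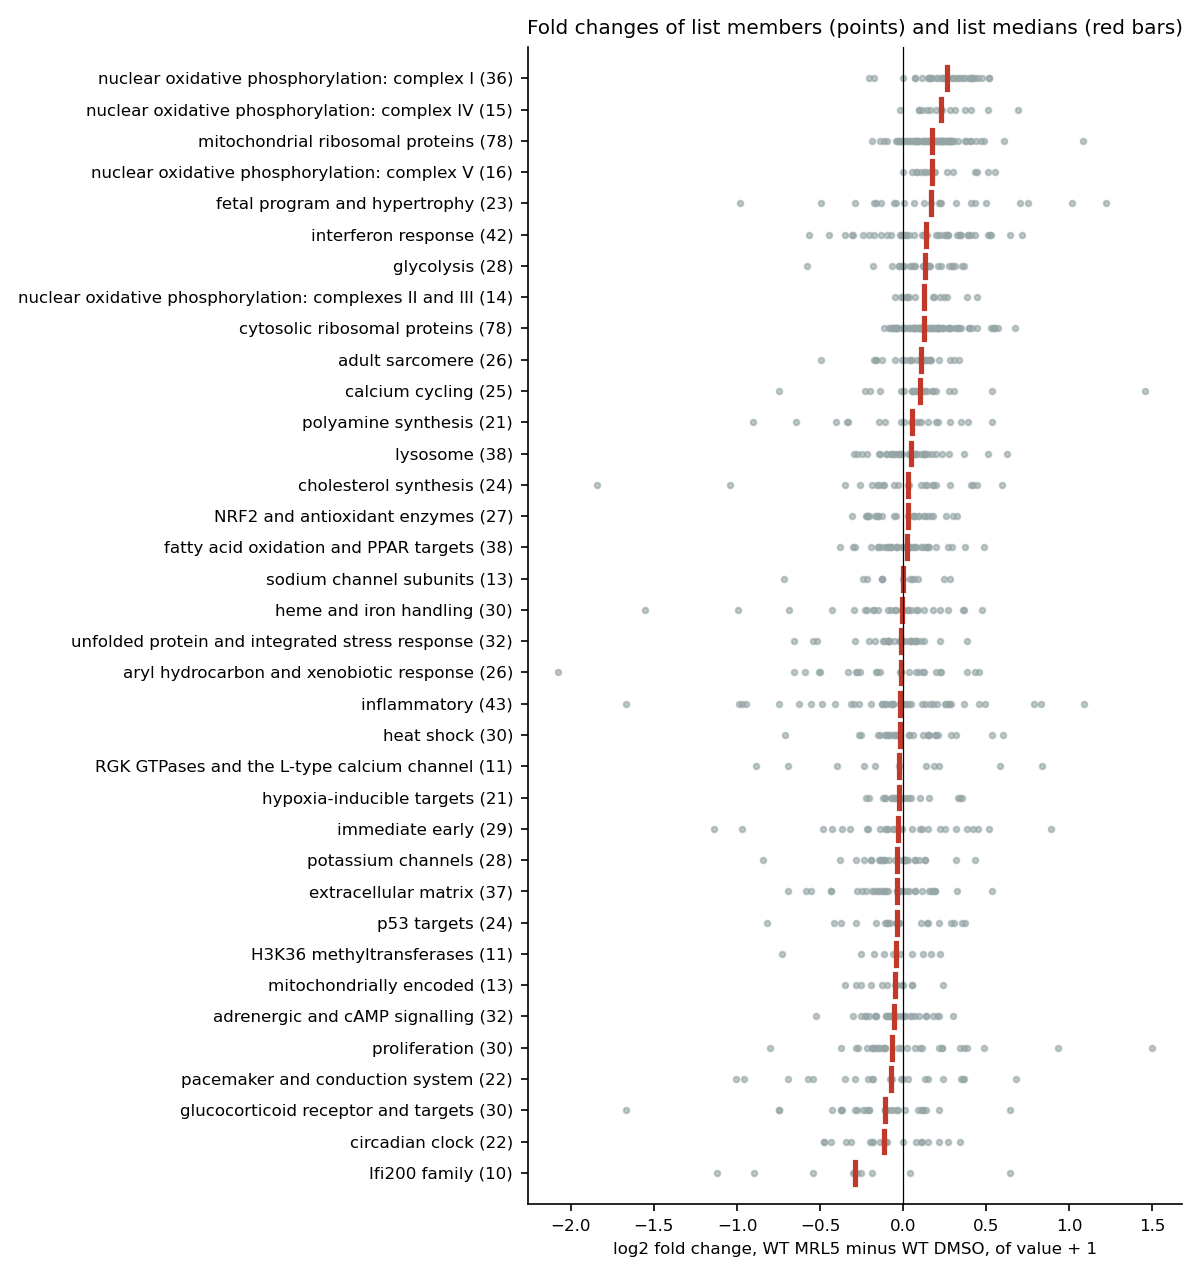
Log2 fold change, WT MRL5 minus WT DMSO, of every tested member of 36 gene lists (grey points, number tested in brackets) and the list medians (red bars). Of these 36 lists, complex I has the highest median, 0.26, and the Ifi200 family the lowest, -0.29.

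Among markers of other cell types, only Tie1, Ccr2 and Sox10 had an unadjusted p under 0.05 by limma, and their groups did not overlap. Groups were also apart for other markers, among them Fabp4, Cspg4 and Des, higher, and S100a8, lower. Of all genes, 9.56% lay apart upward and 9.65% downward. Of 8 endothelial markers 7 had a positive fold change, and the receptor Tie1 was higher (2704 and 2329 in WT MRL5, against 2188, 1844 and 1832 in WT DMSO; 0.37, SE 0.133). All 4 monocyte and neutrophil markers tested were negative, with Ccr2, the monocyte chemokine receptor, at 20.7 and 39.96 in WT MRL5, against 45.9, 76.1 and 56.7 in WT DMSO (list median -0.78, and -0.01 within set 148). The others had low values. S100a8 was at 3.85 and 4.21 in WT MRL5, against 4.69, 7.82 and 24.7 in WT DMSO. Ly6c2 was at 8.21 or less in every WT library, and S100a9 had a log2 fold change of -0.05 (SE 1.19). Of 5 Schwann cell markers Sox10 was lower (11.6 and 14.0 in WT MRL5, against 23.2, 33.6 and 21.7 in WT DMSO; -0.96, SE 0.416), and the list median was -0.62. Among fibroblast, macrophage, smooth muscle, erythroid and mesothelial markers 0 had an unadjusted p under 0.05. Mesothelial markers had the highest median of the marker lists (1.07), but Upk3b was at 77.3 and 121 in WT MRL5, against 14.9, 171 and 10.4 in WT DMSO, so WT DMSO 2 exceeded both MRL5 hearts. The part of cell composition in the gene differences above was not tested.

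Set against GX mice, which carry the channel that MRL5 inhibits, 4 of the 5 authors' q genes had a fold change of the opposite sign. Across all genes tested, the WT and GX fold changes had a Pearson r of -0.12. The share of all genes with opposite signs was not counted, so the 4 of 5 cannot be called particular to these genes. The difference between the effects (WT minus GX, limma interaction) was called for 0 of 14150 genes (0%), with a smallest adjusted p of 0.185, and 904 had an unadjusted p under 0.05 (6.39%). The 2 contrasts share no library. Lcn2, lower in WT mice, was at 95.8, 161, 229, 386 and 215 in GX MRL5, against 70.5, 59.4, 37.4 and 49.9 in GX DMSO. All 5 GX MRL5 hearts were above all GX DMSO hearts, and the difference of effects was -3.54 (SE 0.577, adjusted p = 0.185). Nsd2 had the smallest p of all genes for the difference, at -1.32 (SE 0.210, adjusted p = 0.185), with a fold change of 0.59 in GX mice. Leaving out GX MRL5 1 put Lcn2 under 0.05 (-3.80, adjusted p = 0.0289), and leaving out GX DMSO 4 did so for Nsd2 (-1.43, adjusted p = 0.0455). For each of these genes, leaving out any other GX library or any WT DMSO library left the difference uncalled.

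Among the authors' q genes, Fkbp5 was at 474, 506, 578, 414 and 484 in GX MRL5, against 463, 237, 244 and 294 in GX DMSO. Its difference was -1.46 (SE 0.277, adjusted p = 0.373), and -1.67 without GX DMSO 1 (adjusted p = 0.00537). With any other library left out, the Fkbp5 difference was not called. Hmox1 was at 308, 211, 578, 388 and 299 in GX MRL5, against 299.6, 173, 129.4 and 180.3 in GX DMSO, a difference of -1.84 (SE 0.439, adjusted p = 0.755). In both genes 1 GX DMSO library lay among the GX MRL5 values. Ifi205 had a difference of -1.19 (SE 0.218, adjusted p = 0.348) and Amd1 one of -0.76 (SE 0.212, adjusted p = 0.755), with GX fold changes of 0.29 and 0.11. Rrad was the exception, with a fold change of 0.65 (SE 0.196) in GX mice and a difference of 0.18 (SE 0.330, adjusted p = 0.913): it was at 2095, 2825, 3748, 4879 and 2292 in GX MRL5, against 1927, 1870.5, 1827 and 2052 in GX DMSO. Every MRL5 heart was above every DMSO heart of its own genotype.

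Such gaps of the same sign in both genotypes were found for 12 of 14150 genes, 4 higher and 8 lower with MRL5, and gaps of opposite sign for 18. In WT mice alone, 9.56% of all genes lay apart upward and 9.65% downward. Whether 12 and 18 exceed what chance would give was not tested. Those lower in WT and higher in GX mice numbered 13 and included Lcn2, the ferroxidase Cp, the chemokine Ccl12 and Arhgef3, a guanine nucleotide exchange factor (538 and 787 in WT MRL5, against 883, 925 and 846 in WT DMSO). Those higher in WT and lower in GX mice numbered 5, among them Fbxl22, a cardiac F-box protein (1680.1 and 1450.4 in WT MRL5, against 1338, 1097 and 1002 in WT DMSO). Besides Rrad, the kinase Pim1 was higher in both, with log2 fold changes of 0.55 (SE 0.302) in WT and 0.41 (SE 0.222) in GX mice. The genes named here were chosen after their values were seen. For complex I the median was 0.26 in WT and -0.10 in GX mice, and 9 of 36 members had an unadjusted p under 0.05 for the difference (beside 6.39% of all genes). GX DMSO 4 had the highest index of short against long transcripts of the 14 libraries, 0.258, and the highest complex I mean. That mean was 12.53, 12.34, 12.35, 12.16 and 12.43 in GX MRL5, against 12.41, 12.35, 12.22 and 12.82 in GX DMSO. Without GX DMSO 4 the median in GX mice was 0.03 and 5 of 36 members passed for the difference (beside 5.14% of all genes). With the index as a covariate 1 member passed. Over all settings that leave out 1 library the number ran from 0 (without WT MRL5 1) to 17 (without GX DMSO 3), with 1 without WT DMSO 2, 15 without WT MRL5 2 and 5 without GX MRL5 4.

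**Figure D5:**
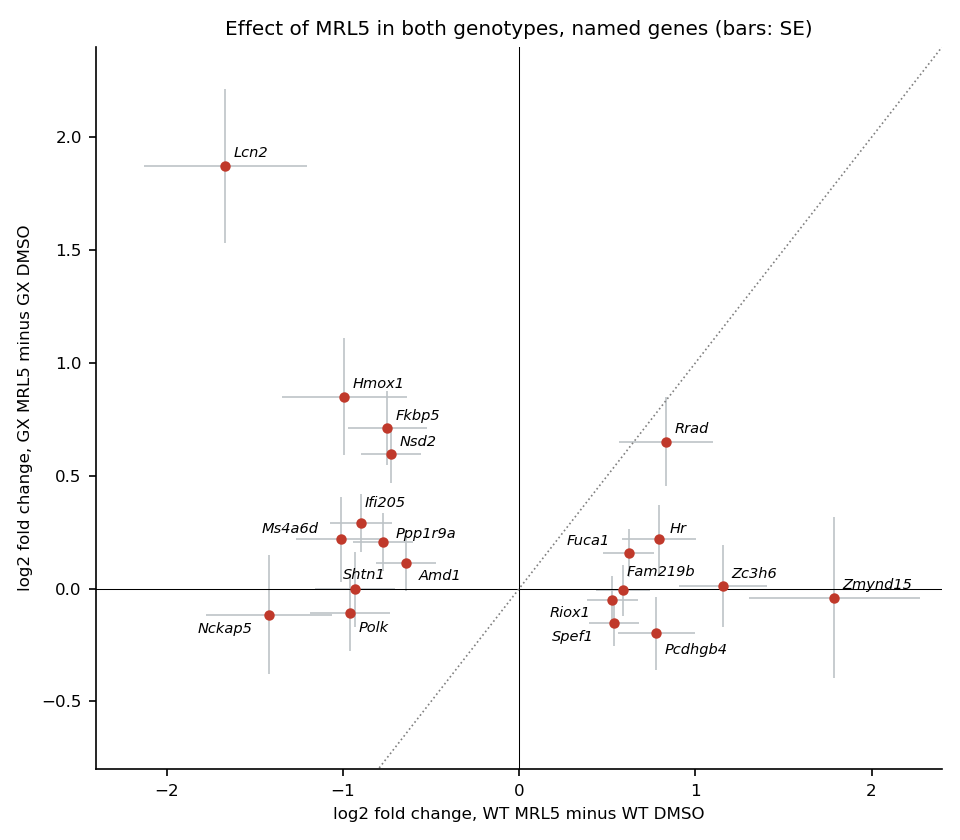
Log2 fold change of MRL5 against DMSO in WT mice (horizontal axis) and in GX mice (vertical axis) for the genes with an authors' q under 0.05, the genes with the smallest p in WT mice that are described above, and Lcn2, with bars of 1 SE and the line of equal effects dotted. Rrad is the nearest to that line, and Lcn2 the farthest, at -1.67 in WT and 1.87 in GX mice.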

How the data were processed

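Ventricular polyA RNA of 14 male mice was sequenced in pairs of reads, per the labels' protocols. The authors deposited 1 table of a signal per gene, scaled reads per base, made with kallisto and sleuth 0.3.0 on GRCm38, per the submitters' processing notes. The scaling and the depth per library are not given in the sources used here. Column sums add up scaled values and do not measure depth. The authors also deposited p-values, q-values and effects on the natural log scale from sleuth for WT mice.

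Of 14307 entries, 146 that repeated another's values were left out. Values were taken as log2(value + 1), so fold changes of low genes are understated, and fitted with limma 3.58.1 (R 4.3.3; trend and robust variances, 4 group means, all 14 libraries, 10 residual degrees of freedom) with Benjamini-Hochberg adjustment over 14150 genes. The fit was tested on simulated data. Named genes were those with an authors' q under 0.05, the 8 higher and 8 lower genes with the smallest p, a mean of at least 20 and groups that did not overlap, and up to 3 members of each list. The members and the gene lists were chosen with earlier results of these data known. P-values measure the spread between these mice. Alternatives changed the pseudocount (0.1, 10), filter, scaling, library set and libraries. Tables were handled with Python 3.11.15 and pandas 2.3.3. Some named genes are not reported here.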

Additional observations from a re-analysis of the deposited data

Results flagged for a closer look

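Lcn2 was picked out because MRL5 and DMSO hearts were ordered oppositely in the 2 genotypes: the difference of effects, WT minus GX, was -3.54 on the log2 scale (SE 0.577). By limma's interaction test its adjusted p = 0.185, so the difference was not called.

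Ifi205 in GX MRL5 was picked out because GX MRL5 3, at 1368, lay far from the other 4 libraries of its group by Dixon's test. Of 12 groups examined 1 was beyond the critical value, and chance picks out about 1 in 20.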

How the results depend on the processing

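Over 28 alternatives, all 1735 fold changes of the 62 genes followed and reported here had the sign of the main one. Of 1008 list medians 977 moved by less than the replicate spread. Both counts were partly fixed in advance. Leaving out a GX library or changing the variance options cannot move a WT fold change. A gene whose WT groups do not overlap cannot change sign when 1 WT library is left out. Calls in WT mice ranged from 0 to 58 when 1 library was left out, and unadjusted p-values under 0.05 from 247 to 2476. The count of such p-values was 429 within set 148 and 422 with the short-transcript index, an alternative added after seeing the data, as was leaving out WT DMSO 2 with GX DMSO 3. Calls of the difference between genotypes ranged from 0 to 27 when 1 library was left out, and with equal library sums there was 1 (Nsd2, -1.38, adjusted p = 0.0149). The cause was not tested. Leaving out 1 library moved 37 of the 62 genes by over 1.5 times. No paired analysis was possible because the labels number no replicates. With 2 MRL5 mice and a median SE of 0.210, small differences were not detectable.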
